A study of Mus musculus with 7 samples.

Results

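Heat shock proteins and J-domain proteins are the molecular chaperones that keep other proteins folded. Their genes were compared between splenic CD4+CD25+ cells, the surface markers by which regulatory T cells (Tregs) were isolated, of aged and young mice. The genes were chosen by symbol, as protein-coding genes of the HSP70 and HSP110 (Hspa, Hsph1), HSP90, chaperonin (Hspd1, Hspe1), small heat shock protein (Hspb) and J-domain (Dnaja, Dnajb, Dnajc) families. They were 70 of the 25469 genes with a count in at least 1 library, 27 with a heat shock protein symbol and 43 with a J-domain symbol. Of these, 58 passed the filter on low counts and were tested together with all other genes, 13904 in all, and 12 were too low to be tested.

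Libraries were made from the cells of 3 aged mice of 18 months and 4 young mice of 8 weeks, all wild type (WT), male and C57BL/6. The labels give 8 weeks for the young mice and the methods of the study give another age. Cells were taken with magnetic beads, so the libraries can hold other cells of the spleen. Values are read counts per gene, given as CPM (counts scaled to the library size, on the TMM scale), and ± is the SD over 3 aged or 4 young libraries. The fold changes are aged over young on the log2 scale, and a gene was called when its adjusted p (edgeR quasi-likelihood test, Benjamini-Hochberg over all genes tested) was under 0.05. In bulk RNA, fewer cells of a type and less RNA per cell cannot be told apart.

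Gene counts per library ranged from 10734234 to 13649310. All 6 Treg markers were found in every library, Foxp3 at 394 to 622 CPM, and their log2 fold changes ran from -0.61 (Il2ra) to 0.86 (Ctla4), with 5 unadjusted p under 0.05. Of them Cd3e was called by edgeR, higher in aged cells, and DESeq2 also called Il2ra and Cd4 lower and Ikzf2 higher. Over all genes, edgeR called 16.7% and DESeq2 27.4%, and 32.7% had an unadjusted p under 0.05 by edgeR. The libraries also held transcripts of other cells. Haemoglobin and other erythroid genes took 1.29% to 13.9% of the gene counts, lowest in aged replicate 1 and young replicate 2 and highest in aged replicate 2, with no unadjusted p under 0.05 between the ages and no call by DESeq2. The summed level of 6 neutrophil markers was 5207, 1842 and 651 CPM in aged and 256 to 917 CPM in young cells, and all 6 fold changes were positive (median 2.13) with an unadjusted p under 0.05, of which 2 were called. Of the other marker lists, beside 16.7% called over all genes, macrophages had 3 of 8 called, all lower, dendritic cells 2 of 5, 1 in each direction, plasma cells 1 of 5 and platelets 1 of 4, both higher, and CD8 T or NK cells 1 of 4, lower, and none of 5 B cell markers was called by edgeR, with 2 unadjusted p under 0.05, both called by DESeq2. Mitochondrially encoded transcripts were 55594 to 102910.4 CPM in aged and 25232 to 30882 CPM in young cells. Of 13 such genes tested, 10 were called, all higher in aged cells (76.9%, beside 16.7% of all genes). The part of these differences in the results below was not tested, except where a value is given.

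HSP70 proteins bind exposed hydrophobic stretches of a client protein and release them in a cycle driven by ATP. J-domain proteins deliver the clients and start ATP hydrolysis, nucleotide exchange factors end the cycle, and HSP90 takes over clients close to their folded state, such as kinases and receptors. Small heat shock proteins hold unfolded proteins without ATP, and the HSP60 chaperonin with its HSP10 lid folds proteins inside mitochondria. In the cytosol a part of the family is induced by the transcription factor HSF1, which binds inverted repeats of the unit GAA (heat shock elements). In the endoplasmic reticulum (ER) another part is induced by the unfolded protein response through the ER stress response element.

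These elements were looked for in the promoters. A window of 300 bases around the transcription start was found for 57 of the 70 genes (RefSeq, GRCm38.p6), and it was searched on both strands for 3 patterns. The genes without a window, among them Hsp90ab1, Hspa8 and Hsp90aa1, were not searched. The first pattern was a heat shock element of 3 units, in which GAA and its reverse complement TTC alternate with any 2 bases between them. It was found in 4 of the 57 genes (7.02%), Dnajb6, Hspd1, Hspe1 and Hsph1, against 0.662% of all 27025 genes with a window. The windows of Hspd1 and Hspe1 overlap, so 1 stretch is counted for both genes. The second pattern was the shorter element of 2 units, GAANNTTC or TTCNNGAA, which is contained in the first and was found in 15 of the 57 (26.3%) against 17.0% of all genes. These 15 also hold the shared stretch of Hspd1 and Hspe1 for each gene, and the near-identical stretches of Hspa1a and Hspa1b. The third was the ER stress response element, CCAAT and CCACG with any 9 bases between them, found in 3 of the 57 (5.26%), Dnajc3, Hsp90b1 and Hspa5, against 0.137%. No match to any pattern was found in the windows of Dnajb1, Dnajb9 and Dnajb11, which says only that these letters are not there. Matches describe the sequence only and are not shown to be bound here. The stretches of Hspb1, the gene with the largest fold change, and of the near-identical pair Hspa1a and Hspa1b are shown because these genes are the stress-inducible ones whose counts differed most between libraries. Those of the Hspd1 and Hspe1 pair, which share a promoter between divergent genes, and of 3 ER genes are shown because they hold the full elements. Capitals mark matches to the 2-unit heat shock element and the ER stress response element, and only bases outside coding transcripts, or the element alone where it lies inside one, are shown. The stretches lie on GRCm38.p6 at chr5:135887669-135887918 on the plus strand (Hspb1), chr17:34972157-34972406 on the minus strand (Hspa1a), chr17:34959239-34959488 on the minus strand (Hspa1b), chr1:55088059-55088076 on the plus strand (Hspd1-Hspe1), chr2:34772025-34772043 on the plus strand (Hspa5), chr10:86705510-86705694 on the minus strand (Hsp90b1) and chr14:118937682-118937931 on the plus strand (Dnajc3).
Hspb1: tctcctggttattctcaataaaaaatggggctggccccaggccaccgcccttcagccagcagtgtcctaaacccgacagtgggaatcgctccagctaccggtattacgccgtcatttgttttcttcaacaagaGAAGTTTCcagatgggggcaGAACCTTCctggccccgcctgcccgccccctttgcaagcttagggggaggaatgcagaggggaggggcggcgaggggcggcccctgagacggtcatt
Hspa1a: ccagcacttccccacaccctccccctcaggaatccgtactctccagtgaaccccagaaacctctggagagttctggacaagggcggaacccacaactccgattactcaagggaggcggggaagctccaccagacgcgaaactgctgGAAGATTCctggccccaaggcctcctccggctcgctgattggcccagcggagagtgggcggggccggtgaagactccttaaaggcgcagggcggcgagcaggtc
Hspa1b: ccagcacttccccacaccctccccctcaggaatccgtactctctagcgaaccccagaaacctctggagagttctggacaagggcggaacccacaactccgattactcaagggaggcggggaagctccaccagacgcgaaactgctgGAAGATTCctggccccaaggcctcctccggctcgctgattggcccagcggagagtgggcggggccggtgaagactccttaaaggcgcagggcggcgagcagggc
Hspd1-Hspe1: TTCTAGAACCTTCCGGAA
Hspa5: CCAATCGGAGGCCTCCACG
Hsp90b1: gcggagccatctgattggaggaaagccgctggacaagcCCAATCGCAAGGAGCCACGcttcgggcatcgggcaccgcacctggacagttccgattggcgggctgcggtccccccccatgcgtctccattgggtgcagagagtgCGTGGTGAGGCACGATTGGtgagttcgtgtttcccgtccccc
Dnajc3: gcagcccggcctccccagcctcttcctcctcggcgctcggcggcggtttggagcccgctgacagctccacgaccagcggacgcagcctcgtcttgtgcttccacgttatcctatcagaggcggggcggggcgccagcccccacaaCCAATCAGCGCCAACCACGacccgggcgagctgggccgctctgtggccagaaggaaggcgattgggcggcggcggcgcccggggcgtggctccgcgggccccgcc

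At the level of the whole family, aged and young Tregs were close. The summed level of the 70 genes was 7581, 7747 and 6571 CPM in the aged libraries (7299.9 ± 636) and 7434, 7960.1, 7454 and 7668 CPM in the young ones (7629 ± 245). The ranges overlap, and aged replicate 3 is the lowest library. Without aged replicate 3 the aged mean was higher than the young mean by 44.9 CPM, so the direction of this difference rests on 1 library. The difference was -329 CPM, and -701 CPM with library-size scaling. The family held 0.654% to 0.832% of the gene counts.

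A few abundant HSP90 and HSP70 genes made up most of this sum. Per kilobase of exon, the highest level was that of Hsp90ab1, the constitutive cytosolic HSP90, with 539 ± 26.4 CPM per kilobase in aged and 567 ± 36.5 in young cells. It was followed by Hspa8 (HSC70, the constitutive cytosolic HSP70), with 324 ± 60.3 and 374 ± 24.8. Hspa5 (BiP, the HSP70 of the ER) came next, with 135 ± 14.0 and 117 ± 12.2. Hsp90aa1 (the inducible cytosolic HSP90), Hspd1 (HSP60), Hspe1 (HSP10) and Hsp90b1 (GRP94, the HSP90 of the ER) lay between 61.6 and 91.7 in both ages, and their order is not separated by their SDs. Dnajc8, a J-domain protein of the nucleus linked to splicing, was at 52.4 ± 2.54 and 52.8 ± 3.11. On the CPM scale, Hsp90ab1 and Hspa8 together held 42.5% of the family's level, and with Hspa5 and Hsp90aa1 54.1%. None of these 8 genes was called, and their fold changes lay between -0.20 and 0.29.

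**Figure D1:**
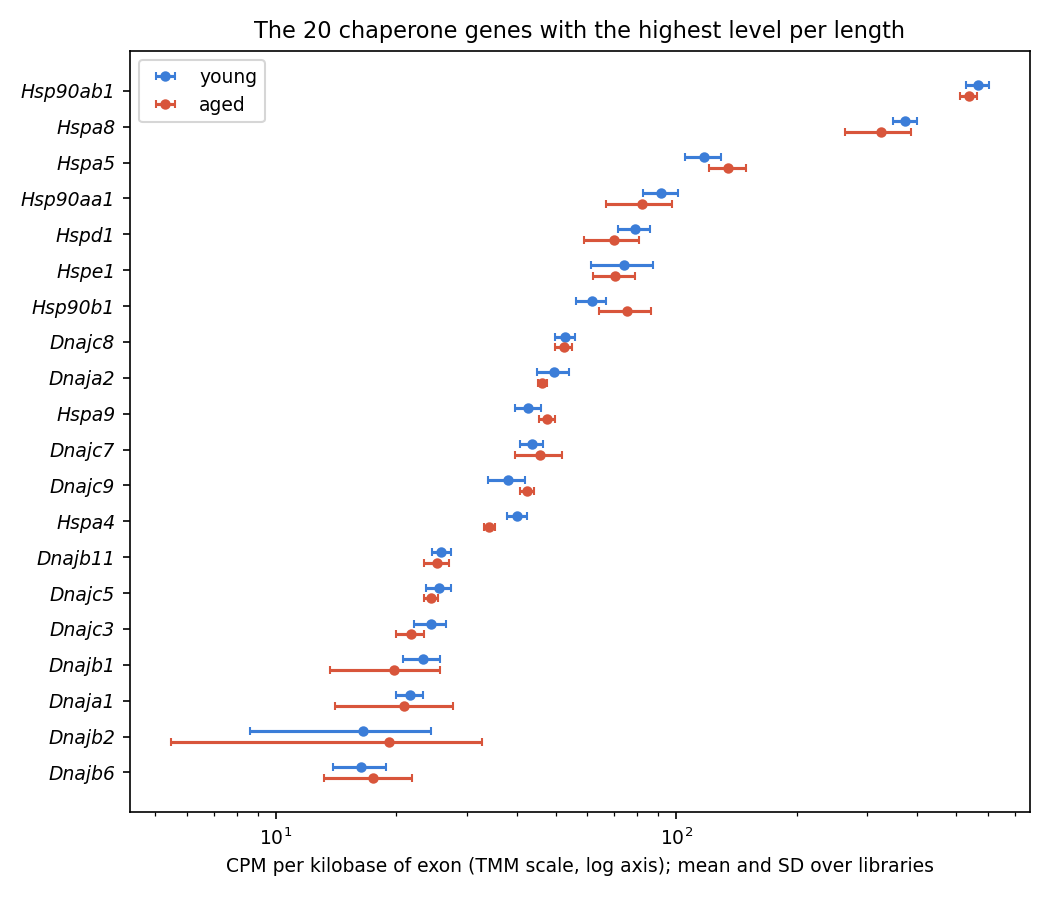
Level of the 20 chaperone genes with the highest CPM per kilobase of exon (log axis), as mean and SD over 3 aged and 4 young libraries. Hsp90ab1 and Hspa8 stand above the others at both ages, and the aged and young means lie close together for each gene.

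The test between the ages called 6 of the 58 genes (10.3%), 4 higher and 2 lower in aged cells. Over all genes tested, 16.7% were called, 9.8% higher and 6.94% lower. Without an adjustment, 11 of the 58 had a p under 0.05, and the share over all genes was 32.7%. Of the 58 fold changes, 35 were negative and 23 positive, and 49 were smaller than 0.3 in size. Over all 13904 genes tested, 6674 were negative and 7230 positive, and 7503 were smaller than 0.3 in size. The median of the 58 was -0.06 (quartiles -0.17 and 0.12), beside 0.02 (quartiles -0.23 and 0.33) over all genes tested. It was -0.147 without aged replicate 2 and -0.136 with library-size scaling. The CPM ranges of the ages did not overlap in 11 of the 58 (19.0%), and in 29.9% of all genes tested. With DESeq2 9 of the 58 were called (27.4% of all genes), 5 of them lower (13.1% of all genes). Leaving out a library moved the count to between 2, without young replicate 3 or young replicate 4 (9.28% and 9.03% of all genes), and 8, without aged replicate 1 (21.5% of all genes).

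**Figure D2:**
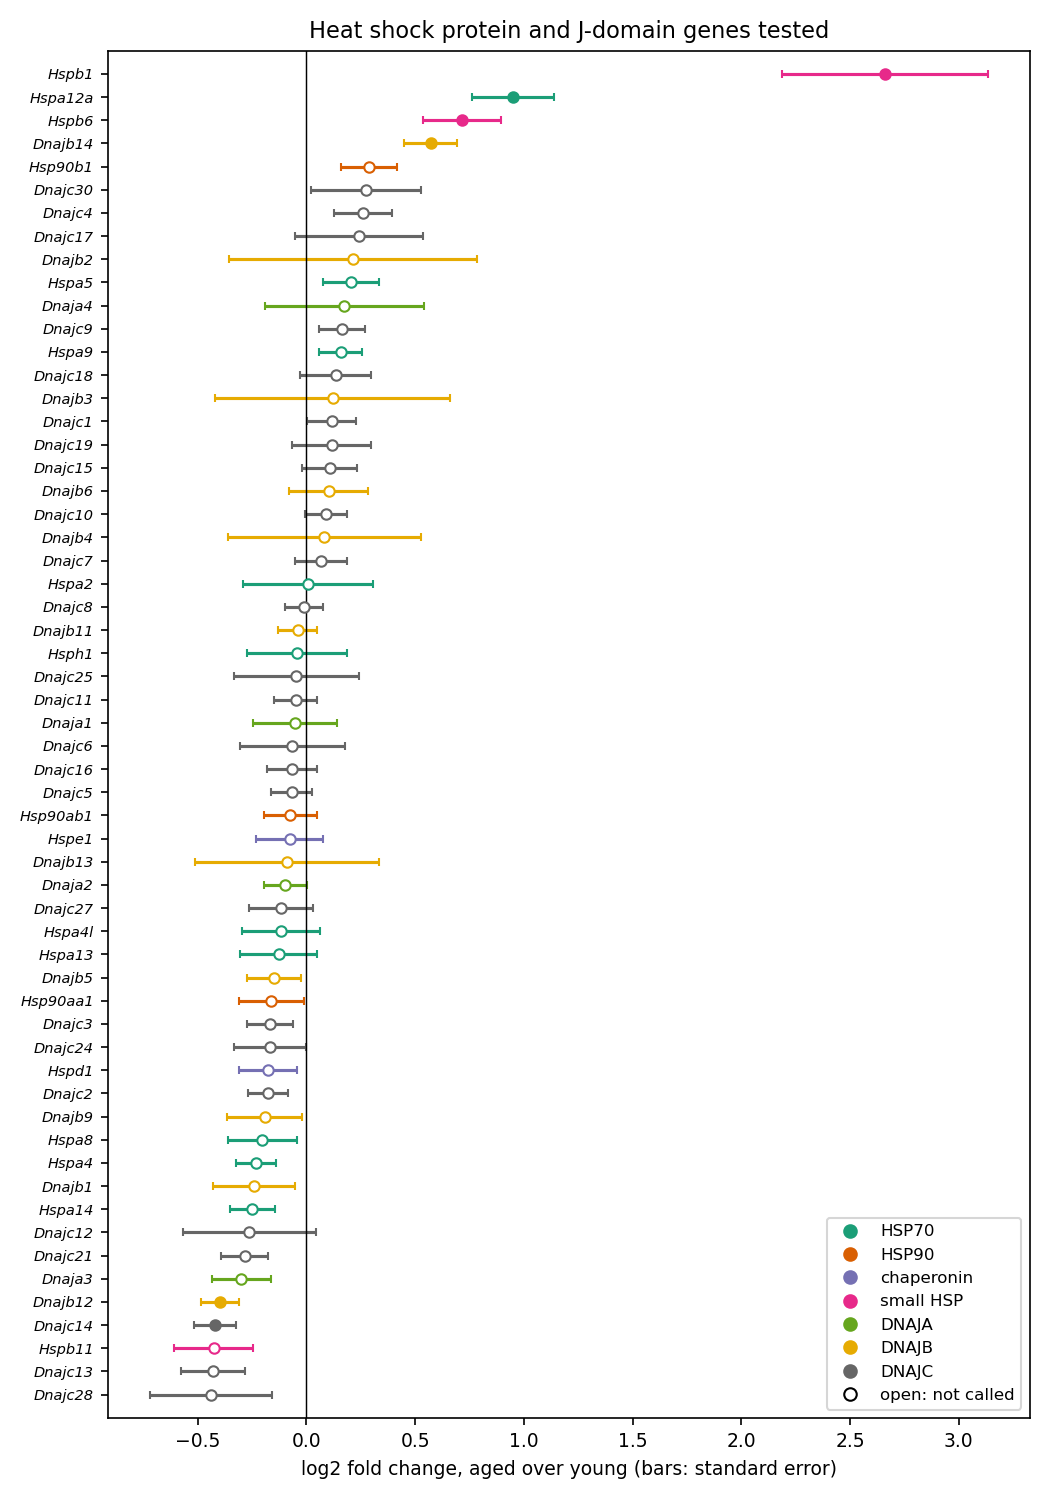
Fitted log2 fold change (aged over young) and standard error of the 58 genes tested, coloured by family, with filled points for the 6 called genes. Hspb1 stands apart at 2.66, and most other points lie within 0.3 of 0.

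The called genes that were higher in aged cells were Hspb1, Hspa12a, Hspb6 and Dnajb14. Hspb1 (ENSMUSG00000004951, chr5:135887919-135889563) encodes HSP27, a small heat shock protein that HSF1 induces and that also protects the actin skeleton. It was at 2.88, 3.12 and 1.68 CPM in the aged libraries and at 0.262, 0.771, 0.158 and 0.358 CPM in the young ones, which is 33, 31 and 18 reads against 3, 11, 2 and 5. Every aged library was above every young one, while 2 young libraries were at or under 3 counts, the limit of detection used here. The log2 fold change was 2.66 (SE 0.473, adjusted p = 0.00836), and it lay between 2.41 and 3.24 when any 1 library was left out, each time with a call. Hspb1 passed the filter on low counts only through the aged libraries, so its entry into the test depended on its high level there. Each count of calls that holds Hspb1 shares this limit. Tested without a filter it was also called (adjusted p = 0.00348), and it was not tested under a minimum of 10 counts in each library. Its promoter carries 2 matches to the 2-unit heat shock element, which are in capitals above.

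Hspa12a (ENSMUSG00000025092, chr19:58795750-58943654) encodes a distant member of the HSP70 family. It was at 6.64, 6.85 and 5.43 CPM in aged and at 3.15, 3.22, 2.92 and 3.73 CPM in young libraries. The ages did not overlap, and the log2 fold change was 0.95 (SE 0.189, adjusted p = 0.0131). It was called with any 1 library left out, with a fold change of 0.89 to 1.05.

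Hspb6 (ENSMUSG00000036854, chr7:30552178-30555443) encodes HSP20, a small heat shock protein best known from muscle. It was at 6.38, 8.96 and 8.89 CPM in aged and at 4.98, 4.90, 4.58 and 5.16 CPM in young libraries. All aged libraries were above the young ones, with aged replicate 1 the closest to them. The log2 fold change was 0.72 (SE 0.181, adjusted p = 0.0307). This call was kept in only 1 of the 7 fits that left out a library (without aged replicate 1), and the adjusted p was 0.0589 to 0.0998 in the others. It was also lost with library-size scaling (0.0528) and with no filter on low counts (0.0532). Of its exon length, 8.79% overlaps exons of other genes, and counting without strand, which the file names point to, would not separate their reads.

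Dnajb12 and Dnajb14 are related J-domain proteins of the ER membrane that work with cytosolic HSC70 in the quality control of membrane proteins, and they changed in opposite directions. Dnajb14 (ENSMUSG00000074212, chr3:137867675-137916557) was at 20.7, 23.1 and 26.2 CPM in aged and at 17.0, 15.6, 14.8 and 15.4 CPM in young libraries, a log2 fold change of 0.57 (SE 0.122, adjusted p = 0.0166). Dnajb12 (ENSMUSG00000020109, chr10:59879556-59899302) was at 36.5, 34.1 and 36.9 CPM in aged and at 48.9, 44.6, 49.0 and 46.4 CPM in young libraries, a log2 fold change of -0.40 (SE 0.0867, adjusted p = 0.0182). In neither gene did the ages overlap. Per kilobase of exon Dnajb12 was the higher of the pair at both ages, with 10.6 and 14.0 CPM per kilobase in aged and young cells against 1.48 and 0.997 for Dnajb14. The call of Dnajb14 was lost without aged replicate 3, young replicate 3 or young replicate 4 (adjusted p 0.0518 to 0.0588). That of Dnajb12 was lost without young replicate 1, 3 or 4 (adjusted p 0.0516 to 0.0596), while the direction was the same in each of these fits.

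Dnajc14 (ENSMUSG00000025354, chr10:128804062-128819446), a J-domain protein of the ER membrane that takes part in the export of receptors, was the other gene that fell. It was at 65.3, 54.8 and 55.4 CPM in aged and at 74.2, 83.4, 78.8 and 76.3 CPM in young libraries, with no overlap. The log2 fold change was -0.42 (SE 0.0958, adjusted p = 0.0219). The call was lost without aged replicate 2 or 3 or young replicate 3 or 4 (adjusted p 0.0561 to 0.0768) and, at 0.0541, when libraries were scaled by their size alone. Of its exon length, 19.9% overlaps exons of neighbouring genes.

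**Figure D3:**
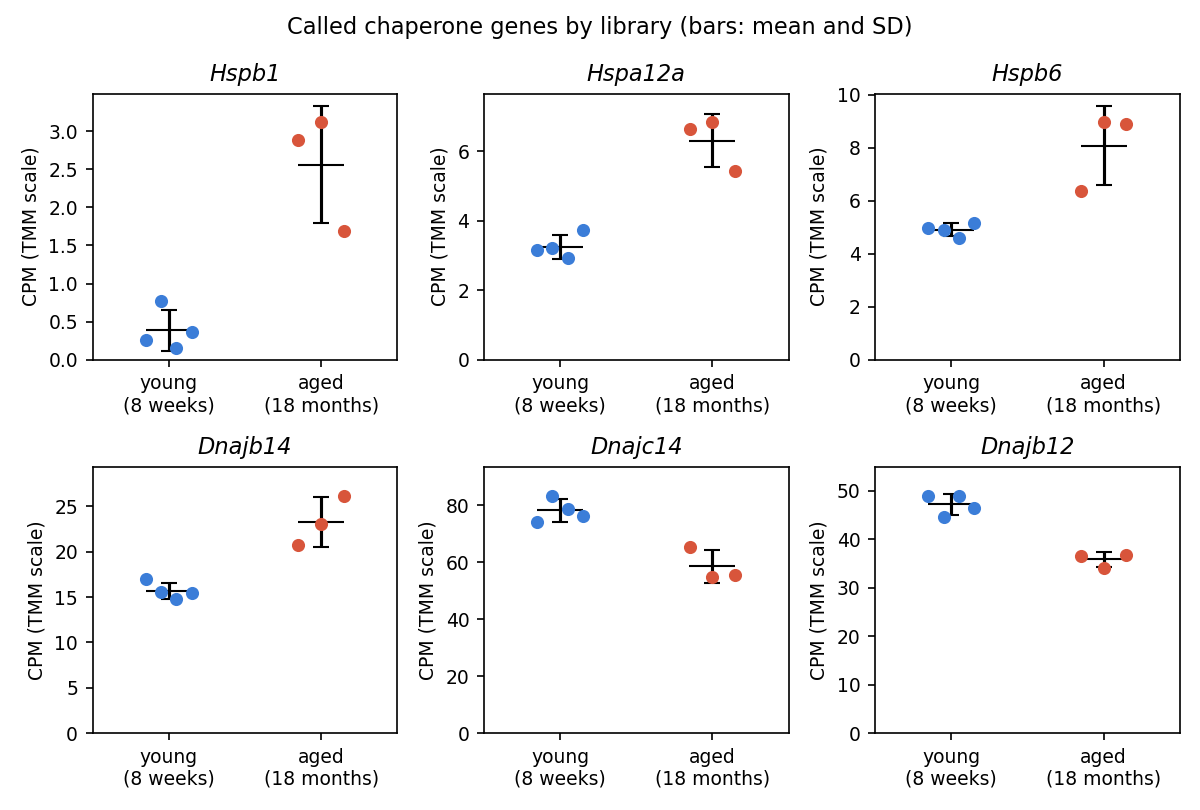
CPM (TMM scale) of the 6 called genes in each of 4 young and 3 aged libraries, with the mean and SD as bars. In every panel the aged and young points are separated, upward in aged cells for Hspb1, Hspa12a, Hspb6 and Dnajb14 and downward for Dnajb12 and Dnajc14.

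In 5 more genes the ages did not overlap but the test made no call, and their values are given without a direction being claimed. Dnajc13, a J-domain protein of endosomes, was at 95.8, 61.6 and 73.6 CPM in aged and at 97.7 to 112 CPM in young libraries (log2 fold change -0.43, SE 0.146, adjusted p = 0.0799). The adjusted p of Dnajc13 was 0.00914 without aged replicate 1, the aged library closest to the young ones, 0.0139 with DESeq2 and 0.0406 with GC content and length trends removed, in a range of 0.00914 to 0.209 over all alternatives. Hspa4, an HSP110 protein that exchanges the nucleotide of HSP70, had a log2 fold change of -0.23 (adjusted p = 0.120) and 0.0168 as its adjusted p with DESeq2, the lowest of its alternatives, which ranged up to 0.341. Hspa14, an HSP70 that acts at the ribosome, had a log2 fold change of -0.25 (adjusted p = 0.138, and 0.0184 without aged replicate 1, in a range up to 0.334). Hspb11, which carries a heat shock protein symbol and is a part of the intraflagellar transport complex, had -0.43 (adjusted p = 0.144), and Dnajc4 had 0.26 (adjusted p = 0.217).

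By family, the counts were spread thinly. Of 10 HSP70 and HSP110 genes tested, 1 was called higher (Hspa12a) and the median log2 fold change was -0.08. Of the 3 HSP90 and 2 chaperonin genes none was called. The genes with an Hspb symbol were low, with 3 of 8 tested and 2 of these called higher, Hspb6 and Hspb1. Hspb1 passed the filter only through its aged libraries, so this count supports nothing about the family. Hspb11, also among the 3, is a part of the intraflagellar transport complex and is a small heat shock protein by symbol only. Of the 4 DNAJA genes none was called. None of these 9 HSP90, chaperonin and DNAJA genes had an unadjusted p under 0.05 or a call by DESeq2. Of 11 DNAJB genes 1 was called in each direction, and of 25 DNAJC genes Dnajc14 was called by edgeR and also Dnajc13 and Dnajc21 by DESeq2, all lower. Over all genes, edgeR called 6.94% lower and DESeq2 13.1%, so these DNAJC calls are not set apart from the other genes. Dnajc21, a J-domain protein of ribosome assembly, had a log2 fold change of -0.28 (SE 0.108, edgeR adjusted p = 0.107, DESeq2 adjusted p = 0.0383, the lowest of its alternatives, which ranged up to 0.332). The heat shock protein symbols had 3 of 18 genes called (16.7%, the share over all genes), all higher (9.8% of all genes). Hspb1 was 1 of the 3, so this count supports nothing about these symbols either. The J-domain symbols had 3 of 40 genes called (7.5%), 1 higher and 2 lower.

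Of 15 tested genes of an HSF1 target list, Hspb1 and the co-chaperone Bag3 were called higher and none lower (13.3%, beside 16.7% of all genes). Hspb1 passed the filter only through its aged libraries, so this count supports nothing about the list. Of the 15 fold changes, 11 were negative (6674 of 13904 over all genes tested), with a median of -0.11 (quartiles -0.17 and 0.02). Only the 2 called genes had an unadjusted p under 0.05. Hsph1 (HSP110, also called HSP105) was at 82.7, 104 and 46.5 CPM in aged and at 75.7 to 84.5 CPM in young libraries. Dnaja1, a farnesylated partner of HSC70, was at 154, 247 and 138 CPM in aged and at 165 to 195 CPM in young libraries. Dnajb1 (HSP40) was at 57.8, 84.4 and 47.0 CPM in aged and at 64.7 to 84.2 CPM in young libraries. In all 3 genes aged replicate 2 was the highest and aged replicate 3 the lowest library, so that the aged libraries spread on both sides of the young ones, and the adjusted p were 0.922, 0.883 and 0.422. Hspa8 was at 1548, 1542 and 1096 CPM in aged and at 1520.5 to 1758 CPM in young libraries (log2 fold change -0.20, adjusted p = 0.416). Hsp90aa1 was at 378, 331 and 258 CPM in aged and at 323 to 409.9 CPM in young libraries (-0.16, adjusted p = 0.497). Without aged replicate 3 the fold changes of Hspa8 and Hsp90aa1 were -0.05 and -0.02. Without aged replicate 1 they were -0.29 and -0.30.

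Hspa1a and Hspa1b, the classic heat-induced HSP70 genes, had few counted reads in every library but 1. Hspa1a (chr17:34969190-34972156) had 0, 42 and 4 reads in the aged and 5, 1, 2 and 6 reads in the young libraries, and Hspa1b (chr17:34956436-34959238) had 3, 141 and 2 reads in the aged and 10, 8, 7 and 26 in the young ones. Aged replicate 2 alone held 4.23 CPM of Hspa1a and 14.2 CPM of Hspa1b, where the other libraries held at most 0.437 and 1.86 CPM. Both genes were below the filter in the test of all 7 libraries. Their coding sequences are 99.5% identical, so reads can align to either and their split is uncertain. Reads on several genes were left out, so reads that match both genes may be missing. The counts of each gene and of the pair can therefore be too low. Summed over the pair, the counted reads were 18.4 CPM in aged replicate 2 and 0.262 to 2.29 CPM in the other libraries. A list of 12 genes that respond to the handling of cells (Fos, Jun and others) had a summed level of 2739, 1726 and 1775 CPM in aged and 4467, 4892, 1906 and 3841 CPM in young libraries, and 2 of the 12 (16.7%, the share over all genes), Fos and Jun, were called lower in aged cells. Of its 12 fold changes 11 were negative (median -0.55), beside 6674 of 13904 over all genes tested. An unadjusted p under 0.05 was found for 7 of the 12 (32.7% over all genes). The part of handling in the level of Hspa1a and Hspa1b was not tested.

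The ER chaperones with the stress response element in their promoters were not called. Hspa5 was at 635, 559 and 518 CPM in aged and at 508, 493, 429 and 553 CPM in young libraries (log2 fold change 0.20, adjusted p = 0.313). Hsp90b1 was at 342, 314 and 255 CPM in aged and at 225, 276, 241 and 251 CPM in young libraries (0.29, SE 0.129, adjusted p = 0.159). In both genes the ranges overlap. Dnajc3 (p58IPK, an inhibitor of the kinase PERK and a partner of BiP) was at 104 to 122 CPM in aged and at 113 to 140.0 CPM in young libraries (-0.17, adjusted p = 0.312). Dnajb9 and Dnajb11, J-domain partners of BiP, had log2 fold changes of -0.19 and -0.04 (adjusted p = 0.482 and 0.798). Dnajb9 was at -0.41 without aged replicate 1 (adjusted p = 0.0847) and at -0.06 without aged replicate 2. Dnajb11 was at -0.09 without aged replicate 2 and at 0.01 without aged replicate 3. Over 12 genes of the unfolded protein response, 5 of them in the chaperone family, Creld2 and Manf, named after their values were seen, were called higher and none lower (16.7%, the share over all genes), and the median was 0.17. Among the 10 chaperone genes listed as ER residents, the calls were those of Dnajb12 and Dnajb14. Dnajc14, also of the ER membrane and called lower, was not on that list. Of 8 mitochondrial chaperone genes none was called by edgeR or DESeq2 and 0 had an unadjusted p under 0.05, with a median log2 fold change of 0.03. Hspd1 and Hspe1, which share the promoter stretch shown above, had -0.18 and -0.08 (adjusted p = 0.397 and 0.772). Hspd1 was at -0.31 without aged replicate 1 and at -0.07 without aged replicate 3. Hspe1 was at -0.17 without young replicate 1 and at 0.03 without young replicate 2, so its direction rests on single libraries.

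Several J-domain genes differed far more between libraries of the same age than between the ages. Dnajb2, a J-domain protein that sorts ubiquitinated clients, was at 28.3, 143 and 72.1 CPM in aged and at 92.9, 23.5, 68.0 and 95.8 CPM in young libraries. Its highest library was 6.10 times its lowest one, and the log2 fold change between the ages was 0.21 (SE 0.570, adjusted p = 0.835). Dnajb4, a cytosolic J-domain protein close to Dnajb1, was at 21.8, 78.3 and 34.9 CPM in aged and at 54.5, 21.2, 44.7 and 49.5 CPM in young libraries. Dnajb13, known from the axoneme of sperm, was at 10.3, 31.7 and 15.7 CPM in aged and at 28.9, 10.4, 19.4 and 23.1 CPM in young libraries. Dnaja4, a DNAJA protein of the cytosol, was at 15.5, 33.0 and 15.8 CPM in aged and at 26.9, 9.95, 20.1 and 19.1 CPM in young libraries. All 4 were lowest in aged replicate 1 and young replicate 2 and highest in aged replicate 2, and this order of extremes is that of the erythroid markers, whose summed level was 12688, 156886 and 79816 CPM in aged and 116148, 12381, 61623 and 59934 CPM in young libraries.

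This pattern was noticed in the values and then counted. Aged replicate 1 and young replicate 2 were the lowest pair of libraries in 8 of the 58 genes (13.8%), Dnaja4, Dnajb13, Dnajb2, Dnajb3, Dnajb4, Dnajb6, Dnajc18 and Hspa2, and in 6.19% of all genes tested. With aged replicate 2 also the highest, it was 6 of the 58, and 3.93% of all genes. All 6 erythroid markers showed the first pattern and 5 of them the second. Of the exon length of Dnaja4 and Dnajb13, 44.1% and 11.2% overlap exons of other genes. The part of erythroid transcripts in the level of these J-domain genes was not tested.

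**Figure D4:**
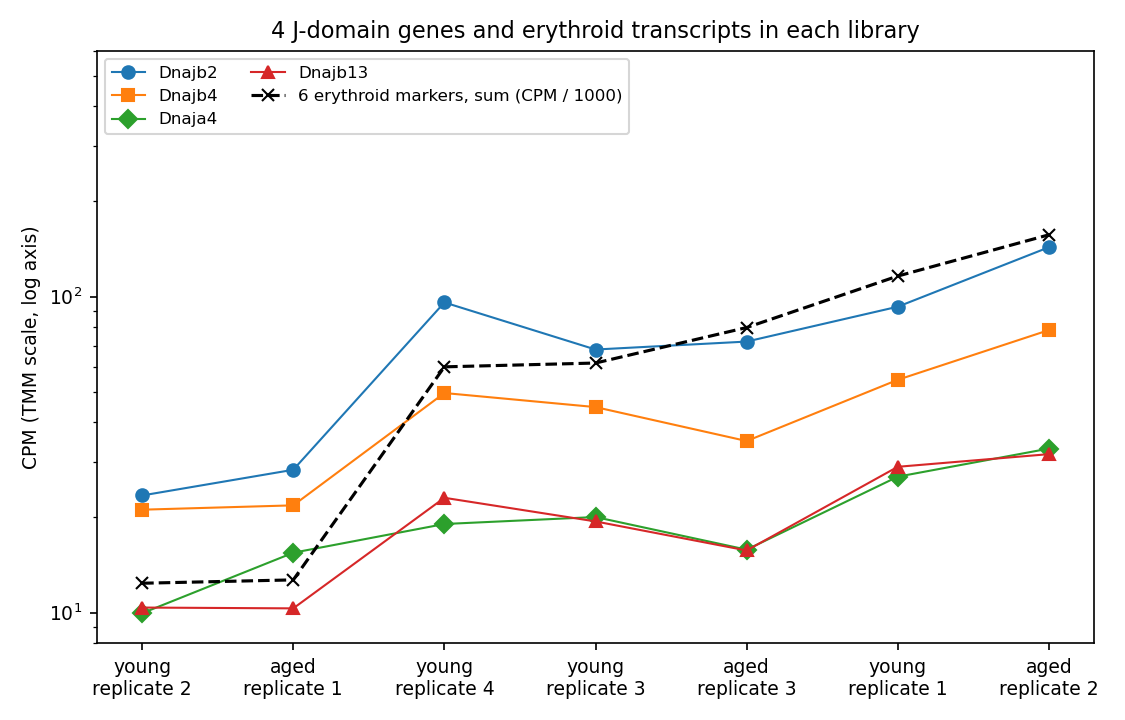
CPM (log axis) of 4 J-domain genes in each of the 7 libraries, ordered by the summed level of 6 erythroid markers (dashed, CPM divided by 1000). Young replicate 2 and aged replicate 1 are lowest and aged replicate 2 is highest in all 5 lines.

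The genes that act on the chaperones were counted from a list of 53 co-chaperones and regulators, of which 47 were tested. Of these, 3 were called (6.38%, beside 16.7% of all genes), 2 higher and 1 lower, and the median log2 fold change was -0.06. An unadjusted p under 0.05 was found for 15 of the 47 (32.7% over all genes), and the ages did not overlap in 14 (29.8%, beside 29.9%). DESeq2 called 2 higher and 9 lower, where it called 14.3% of all genes higher and 13.1% lower. Bag3 (chr7:128523616-128546981), the nucleotide exchange factor that links HSP70 and the small heat shock proteins to autophagy, had the largest change. It was at 18.5, 22.8 and 22.7 CPM in aged and at 6.38, 6.80, 6.24 and 8.60 CPM in young libraries, so that the lowest aged library was above 2 times the highest young one. The log2 fold change was 1.60 (SE 0.159, adjusted p = 0.000933), and it was called under all 17 alternatives.

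Cdc37, which brings kinases to HSP90, was lower in aged cells, at 159.9 ± 15.4 against 222 ± 17.3 CPM (log2 fold change -0.47, SE 0.109, adjusted p = 0.0224). Ptges3 (p23), which holds HSP90 in its closed form, was higher, at 127 ± 18.1 against 94.7 ± 6.39 CPM (0.42, SE 0.116, adjusted p = 0.0419). The call of Cdc37 was lost without aged replicate 3 or young replicate 1, 3 or 4 (adjusted p 0.0506 to 0.0805), and that of Ptges3 without aged replicate 2 or 3 or young replicate 1, 3 or 4 (0.0985 to 0.134), with library-size scaling (0.115) or with no filter on low counts (0.0698). Hsf1 itself was at 61.4 ± 5.02 CPM in aged and 53.4 ± 4.28 CPM in young cells (0.20, adjusted p = 0.199). Of the 8 subunits of the cytosolic chaperonin CCT that were tested none was called in the main edgeR test. DESeq2 called 3 lower (Cct2, Cct3 and Cct5, beside 13.1% of all genes lower). Limma voom called Cct5 lower (adjusted p = 0.0498, beside 7.03% of all genes lower). The removal of GC and length trends called Cct2 and Cct5 lower (0.0361 and 0.0323, beside 8.34%). All 8 fold changes were negative (6674 of 13904 over all genes tested), with a median of -0.18 and 3 unadjusted p under 0.05 (32.7% over all genes).

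The other 10 genes below the filter, beside Hspa1a and Hspa1b, were Hspa1l, Hspa12b, Hspb2, Hspb3, Hspb7, Hspb8, Hspb9, Dnajb7, Dnajb8 and Dnajc22, many of them known from muscle, testis or other tissues. Their highest value in any library was 0.932 CPM, and 5 of them had at most 3 reads in every library, for which a difference between the ages was not detectable at this depth. None of the 10 was called when all genes were tested without a filter, with adjusted p of 0.116 or more.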

How the data were processed

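Splenic CD4+CD25+ cells of 3 aged and 4 young mice were profiled by RNA-sequencing of total RNA with a SMART-Seq v4 kit. The authors deposited raw counts of reads per Ensembl gene for each library. The aligner and annotation are not given in the sources used here, and the submitters' processing notes name the build mm10. File naming points to counting without strand. The authors also deposited a table of the series with a normalized signal (each count divided by 1 factor per library), a log2 fold change with its error, a test score and p-values. The deposited signal was used to check the counts, gene symbols came from this table, and the authors' log2, score and p-value columns were not used. Reads on no or several genes (13.1% to 20.9%) were left out.

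Counts were tested with edgeR 4.0.16 in R 4.3.3 (TMM, filterByExpr by group, quasi-likelihood test, no covariate, Benjamini-Hochberg over 13904 genes), which was tested on simulated data. The SE was computed from the fold change and its F statistic. A count of 3, which is 0.220 to 0.279 CPM, was the limit of detection, covering counting error only, since the cDNA carries no molecular identifiers. Labels call the samples biological replicates. Coordinates and exon lengths are from GENCODE M21 on GRCm38, in which all 70 genes matched by identifier. The chaperone genes, the gene lists and the alternatives were chosen with earlier results of these data known. Named with values were the called genes, the 8 with the highest level per length, fixed sets of heat-inducible and ER genes, called co-chaperones with Hsf1 and Bag3, and up to 8 uncalled genes without overlap; J-domain genes that varied within an age, Creld2, Manf and the marker genes were added after their values were seen. Results were recomputed with DESeq2 1.42.0, limma voom (limma 3.58.1, the package the study names), RLE or library-size scaling, no filter, a minimum of 10 counts per library, exclusion of haemoglobin, immunoglobulin and mitochondrial genes, thinning to the smallest library, a replicate block and each library left out. Removal of GC and length trends was added after seeing the data.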

Additional observations from a re-analysis of the deposited data

Results flagged for a closer look

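In 5 of the 65 sets of young values looked at (the 58 chaperone genes tested, other named genes and the family's summed level), 1 young library lay apart from the other three, by a gap of more than 0.829 of the group's range (Dixon's 95% value for 4 samples, which chance passes in about 1 of 20 sets). Young replicate 2 was highest for Dnaja2, with 167 CPM against 139 to 143 CPM, and for Cdc37, with 248 CPM against 209.8 to 216 CPM. Young replicate 3 was highest for Hspa14, with 76.9 CPM against 72.1 to 72.8 CPM, and lowest for Hsf1, with 47.0 CPM against 55.3 to 55.9 CPM. Young replicate 4 was lowest for Dnaja1, with 165 CPM against 193 to 195 CPM.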

How the results depend on the processing

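The 6 calls were all kept with DESeq2, limma voom, RLE scaling, thinning, the removal of mitochondrial, immunoglobulin and haemoglobin genes, and the removal of GC and length trends, which added Dnajc13. Over the called genes, 76 alternative fits kept the call and 25 lost it, and none turned a direction. Of these 25 losses, 6 come from the replicate block alone, whose pairing the replicate numbers did not bear out (below). DESeq2 called 3804 genes and 9 chaperone genes, 5 of them lower, and 9 co-chaperones lower. Limma voom called 2 co-chaperones lower, and the removal of GC and length trends 3. With library size alone 1 chaperone gene was called lower and 1 co-chaperone higher, and the median log2 fold change of the chaperone genes was -0.14, beside -0.05 over all genes. Without a filter 1 co-chaperone was called higher. With 1 library left out, all genes called ranged from 1237 to 3058, chaperone genes called from 2 (without young replicate 3 or 4) to 8 (without aged replicate 1), those higher from 2 to 4 and those lower from 0 to 4. Co-chaperones called higher ranged from 1 to 2 and those lower from 0 to 3, and the median from -0.147 to -0.0234. The difference of the summed level then ranged from -568 to 44.9 CPM, and it was -701 CPM with library size alone. Replicate numbers did not pair the samples (correlations of same-numbered deviations -0.19, -0.45 and -0.15), so the counts of the replicate block on 6 libraries are given only here. It called 279 genes (2.04% of those tested), 0 chaperone genes higher or lower, 1 co-chaperone higher and 0 lower. Genes with few reads, such as Hspb1 in young cells, are limited by depth, and Hspb1 was not tested under the minimum of 10 counts per library.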
